A study of Mus musculus with 8 samples.

Results

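The cell junction genes of the cardiomyocyte were followed in 8 single myocardial cells. The 10 genes were Cdh2, Ctnna1, Ctnnb1, Jup, Dsp, Pkp2, Dsg2, Gja1, Gja5 and Tjp1, out of 23738 genes with a symbol on the array. Probes were matched to them by symbol, with no use of signal, and the array carried 16. Each array measured 1 cell from the heart tube of a mouse embryo with 9 somites at embryonic day 8.5. The 4 WT cells came from embryos of genotype Mesp1+/+_Sox17flox/flox, and the 4 KO cells from Mesp1Cre/+_Sox17flox/flox embryos. The floxed Sox17 alleles, which encode an HMG-box transcription factor, were thus shared by all 8 cells, and the Cre allele of Mesp1, active in the early mesoderm that gives rise to the heart, was carried by the KO cells only. The labels name no embryo or litter, so cells of a genotype may share an embryo, each genotype counts as 1 sample of cells, and no difference between genotypes was tested. Each SD below is the spread between the 4 cells of a genotype. The arrays of each genotype lay on a slide of their own, and the effects of slide and of genotype cannot be told apart.

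Cardiomyocytes are coupled end to end at intercalated discs, which mature after the heart tube has begun to beat. In adherens junctions, cadherins of neighbouring cells bind each other and hold the actin cytoskeleton through catenins. Desmosomes use desmosomal cadherins, plakoglobin, plakophilin and desmoplakin to hold intermediate filaments, and gap junctions are channels of connexins that pass ions and small molecules from cell to cell. ZO-1, the product of Tjp1, is a scaffold that binds both catenin complexes and connexins.

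The 8 cells had the profile of cardiomyocytes. All 13 myocardial marker genes examined, among them Actc1, Myh6, Myl7, Nkx2-5 and Tnnt2, had a probe well above background in each cell. Of 13 endothelial markers, 2 to 4 were detected in a WT cell and 3 to 4 in a KO cell, and the summed signal of their brightest probes was 574 to 4397 for WT and 538 to 2027 for KO. Of these endothelial markers, Kdr was detected in all 8 cells, at 443 (KO cell 1) to 692 (WT cell 3), and Plvap was also detected in all 8. Egfl7 read 3662 in WT cell 3 and 1271 in KO cell 2 and was detected in no other cell. Pecam1 was detected in 2 WT and 2 KO cells. The endothelial cadherin gene Cdh5, Cldn5, Emcn and Tek were detected in 0 of 8 cells. No WT cell had an erythroid marker detected, and at most 1 of 7 was detected in a KO cell. Of 6 endoderm, 5 proepicardial and 3 neural crest markers, at most 1 of each list was detected in any cell. The proepicardial marker Wt1 read 474 and 472 in WT cells 2 and 3 and was detected in no other cell. Sox17 was detected in 0 of 8 cells with both its probes, so its level does not check the genotype labels. The share of all the array's probes that was well above background was 19.6% to 26.0% for WT and 17.1% to 24.3% for KO.

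Of the 10 junction genes, 6 gave signal above the floor and 4 did not. Signals are given as scaled signal, the background-corrected brightness of a probe after the arrays had been brought to a common median, and for means and differences every value under 50 was set to 50 (the floor). A probe is called detected where the scanner software marked it as well above background. Cdh2, Ctnna1, Ctnnb1, Dsp, Pkp2 and Tjp1 were above the floor in at least 1 cell, and Jup, Dsg2, Gja1 and Gja5 were under it in all 8 cells. Of the 16 probes, 5 were detected in 0 cells and 1, that of Ctnna1, in all 8 cells. The probes of different genes differ in efficiency, so values are compared between cells for 1 probe and not between genes.

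**Figure D1:**
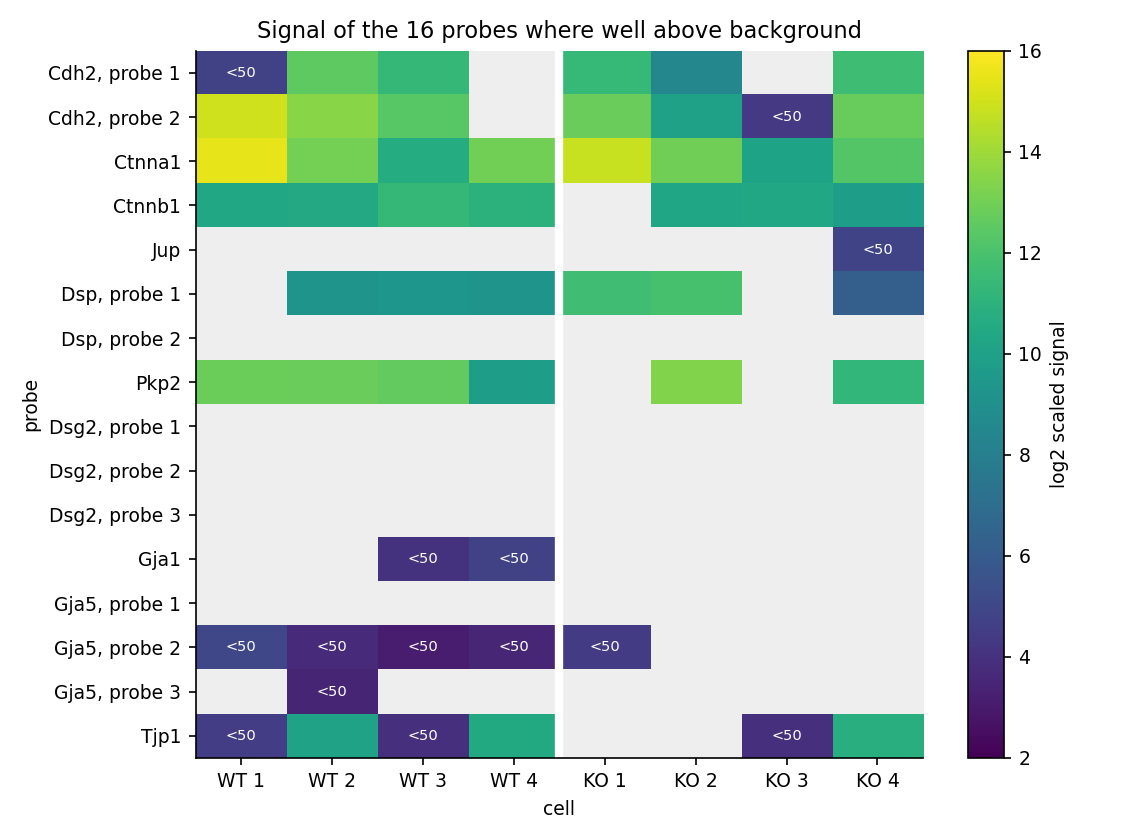
Log2 scaled signal (colour) of the 16 probes (rows) in the 4 WT and 4 KO cells (columns), drawn where the probe was well above background; grey marks a probe that was not, and <50 marks a detected signal under the floor. The 3 Dsg2 probes and the second Dsp probe were detected in 0 cells, and only the Ctnna1 probe was detected in all 8.

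The probes lie at different places in their transcripts. The cDNA was primed at the poly(A) tail of the RNA and amplified, and the files give the place of each probe in its transcript. The probe sequences of Jup and of the second Dsp probe, which start at bases 1875 and 5665 of their transcripts and in which at least 1 reading frame runs through without a stop codon, are shown because these probes gave no signal above the floor in any cell (5′ to 3′, no base set apart by capitals).
Jup: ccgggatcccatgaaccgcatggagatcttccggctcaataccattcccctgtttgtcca
Dsp, second probe: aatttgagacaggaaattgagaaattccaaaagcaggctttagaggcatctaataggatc
The Jup probe lies at chr11:100238038-100238097 (mm9, minus strand), and the files give no position for the second Dsp probe. Over 3354 RefSeq transcripts with probes at least 500 bases apart, the later probe was detected in more cells for 1226 transcripts, the earlier probe in more cells for 884, and both in equally many for 1244.

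Among the adherens junction genes, Cdh2 encodes N-cadherin, the classical cadherin of the myocardium. Its second probe starts at base 4413 of the transcript. It read 32868, 11673, 5305 and 6.36 in WT 1 to 4, and 7269, 1048, 20.3 and 6923 in KO 1 to 4. WT cell 4 and KO cell 3 were under the floor, the other 6 cells were at 1048 or above, and the genotypes overlapped. The first Cdh2 probe, which starts at base 4586, read 26.3, 5975, 2612 and 5.40 in the WT cells and 2712, 357, 10.4 and 3221 in the KO cells. WT cell 4 and KO cell 3 were again under the floor, but WT cell 1, the brightest cell for the second probe, was also under it here. The log2 difference, KO minus WT, was -1.32 with the second probe (WT mean 11.63 ± 4.14, SD, n = 4; KO mean 10.32 ± 3.38, SD, n = 4) and 0.50 with the first, so the sign depends on the probe. With the second probe it was -3.31 without WT cell 4, -0.19 without WT cell 1 and 0.24 without KO cell 3, so the sign and size also depend on single cells. The files place the second probe at chr4:86750744-86750803 and the first at chr18:16747386-16747445 (mm9), although both are assigned to the same transcript, and whether the second also reads another copy was not tested.

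Ctnna1 encodes alpha-E-catenin, which links the cadherin complex to actin. Its probe (chr18:35414129-35414188) read 46009, 8608, 1642 and 8340 in WT 1 to 4 and 28694, 7931, 1101 and 4813 in KO 1 to 4. It was the 1 member found in every cell, and both genotypes spanned nearly the same range. The log2 difference was -0.54, less than the SD between cells of 1.96 in WT and 1.94 in KO, and it ranged from -1.34 to 0.27 when each cell was left out in turn.

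Ctnnb1 encodes beta-catenin, which binds the cadherin tail and is also the effector of canonical Wnt signalling. Its probe (chr9:120869274-120869333) read 1291, 1385, 2533 and 2064 in the WT cells, which were the most even values of any member above the floor (SD 0.46 on the log2 scale). The KO cells read 1.21, 1233, 1318 and 898. KO cell 1 was not detected, and KO cells 2 and 3 lay beside the lowest WT cells. The log2 difference of -1.75 was carried in large part by that cell and was -0.62 without it. Leaving out the floor gave -3.09.

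Cells under the floor for one gene of this complex were above it for the others. Cdh2 (second probe), Ctnna1 and Ctnnb1 were above the floor together in 5 of the 8 cells, 3 WT and 2 KO. WT cell 4 and KO cell 3 were under the floor for Cdh2, and KO cell 1 for Ctnnb1. Over the 8 cells the 3 probes with the highest Pearson correlation with the second Cdh2 probe, of 4228 probes of other genes detected in at least 6 cells, were those of Ap1m1 (r = 0.87), Endov (r = 0.86) and Capns1 (r = 0.85), given as a description of 8 cells from 1 array each.

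**Figure D2:**
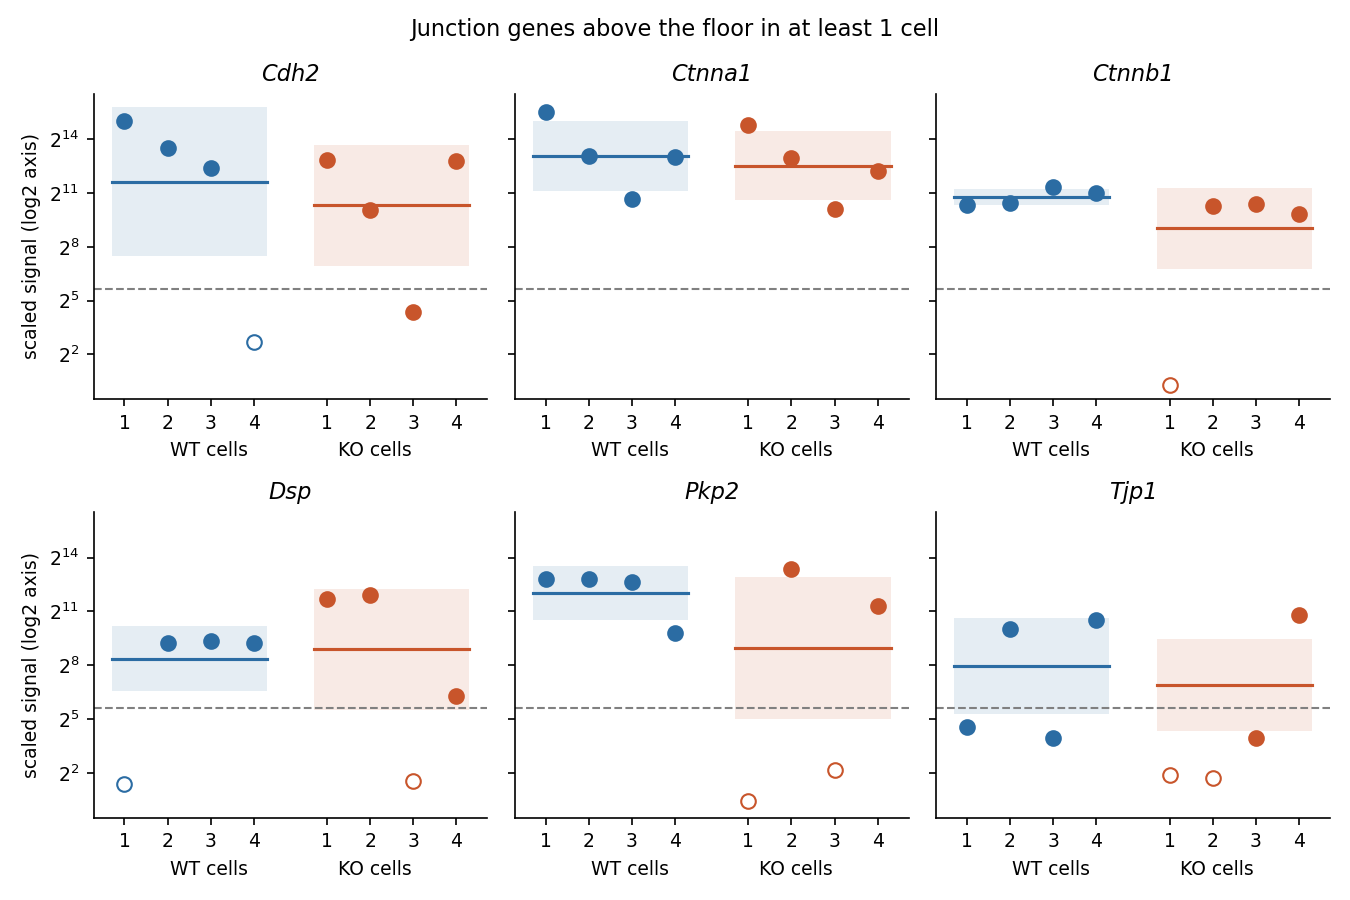
Scaled signal (log2 axis) of the brightest probe of the 6 junction genes above the floor in at least 1 cell, 1 point per cell, filled where well above background; lines show the mean and shading the SD over 4 cells on the log2 scale after values under 50 (dashed line) were set to 50. Every gene but Ctnna1 has cells at the floor, and Pkp2 is low in KO cells 1 and 3 but highest of all in KO cell 2, at 10613.

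Among the desmosome genes, Pkp2 encodes plakophilin 2, an armadillo protein of the desmosomal plaque. Its probe (chr16:16272648-16272707) read 7296, 7271, 6368 and 891 in WT 1 to 4 and 1.37, 10613, 4.40 and 2488 in KO 1 to 4. Each of the 4 WT cells had it detected, against 2 of 4 KO cells. KO cell 2 was the highest of the 8 cells, so the genotypes overlapped. The mean was 12.02 ± 1.49 (SD, n = 4) in WT and 8.99 ± 3.95 (SD, n = 4) in KO on the log2 scale, a difference of -3.04, or 8.22-fold with values under 50 set to 50, and -5.21 without the floor. This was the largest difference of any member probe in size and it rested on the KO cells at the floor: it was -1.93, inside the 5-fold limit, without KO cell 1 or without KO cell 3, and -4.50 without KO cell 2.

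Dsp encodes desmoplakin, which ties the desmosomal plaque to intermediate filaments. Its first probe (chr13:38290121-38290180, from base 9266 of the transcript) was printed 10 times on each array, which gives the error of printing and scanning but not that of the amplification of each cell's cDNA. The cell values were 2.60, 602, 650 and 610 in WT 1 to 4 and 3300, 3921, 2.93 and 76.8 in KO 1 to 4. WT cell 1 and KO cell 3 lacked signal, the other 3 WT cells lay close together, and KO cells 1 and 2 lay above all WT cells. Where the probe was detected, the SD between its 7 to 10 kept spots was 0.04 to 0.10 on the log2 scale, against 1.82 between WT cells and 3.39 between KO cells. The log2 difference of 0.51 was smaller than either SD between cells and turned to -0.50 without KO cell 2 and to -0.27 with medians of cells.

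Jup and Dsg2 did not pass the floor. Jup encodes plakoglobin, which is shared by desmosomes and adherens junctions. Its probe was detected in KO cell 4, at 29.4, and in no other cell, where it read 1.27 to 3.28. Dsg2 encodes desmoglein 2, a desmosomal cadherin of the heart. Its 3 probes, which start at bases 487, 3396 and 3878 of their transcripts, read 1.10 to 3.49 over the 8 cells and were detected in 0 of them. Dsp and Pkp2 were above the floor together in 5 of the 8 cells, WT cells 2 to 4 and KO cells 2 and 4.

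Among the gap junction genes, Gja1 encodes the connexin Cx43, the main connexin of the working ventricle of the later heart, and Gja5 encodes Cx40, found in the atria and the conduction system. The Gja1 probe (chr10:56109814-56109873, 10 spots per array) read 2.38, 2.0, 16.3 and 27.5 in WT 1 to 4 and 1.31, 3.19, 2.83 and 2.28 in KO 1 to 4. In WT cell 3 all 8 kept spots, and in WT cell 4 all 10, were well above background, at 15.0 to 20.9 and 24.8 to 29.8. In the other 6 cells 0 spots were. Cx43 RNA was therefore detected in 2 WT cells and 0 KO cells, but under the floor, so that no fold was calculated. WT cells 3 and 4 also had the highest shares of all probes detected among the WT cells, 26.0% and 24.1%. In KO cells this share was 17.1% to 24.3%, and its part in the Gja1 pattern was not tested. The share of array probes with such a pattern is not given here, so it cannot be read as particular to Gja1.

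**Figure D3:**
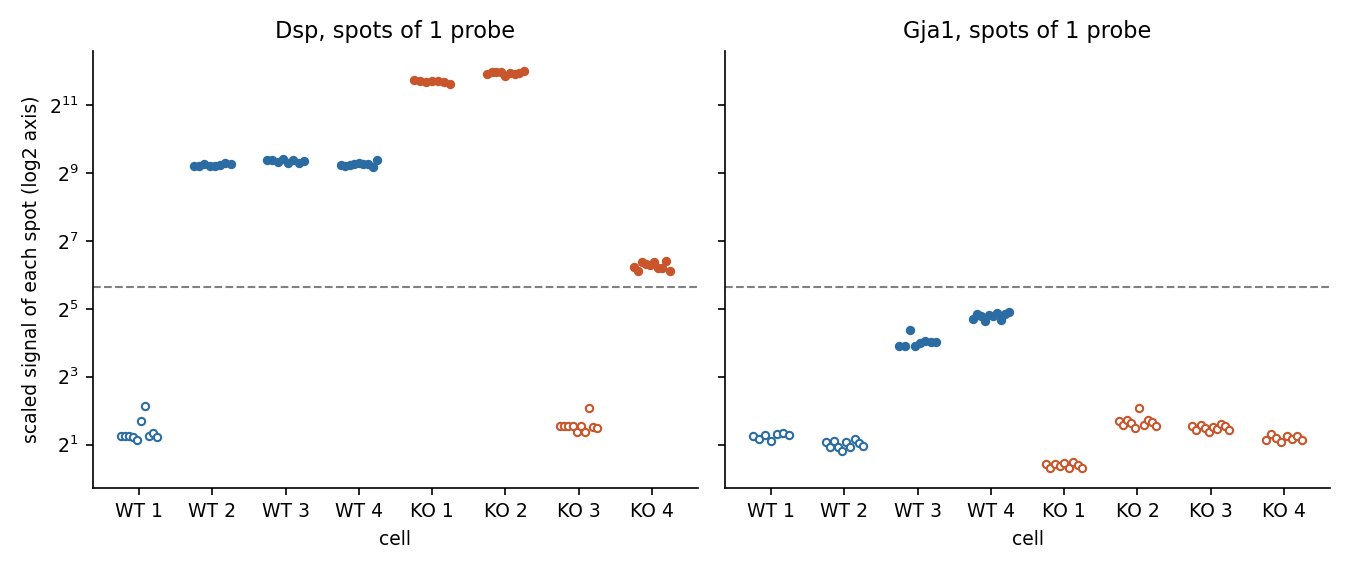
Scaled signal (log2 axis) of each kept spot of the first Dsp probe and of the Gja1 probe, which each array carried 10 times, by cell; filled spots were well above background and the dashed line is the floor of 50. Spots of 1 cell lie close together for both genes, and the Gja1 spots of WT cells 3 and 4 lie above those of the other 6 cells and under the floor.

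Gja5 had 3 probes. The first, from base 2914 of the RefSeq transcript (chr3:96857349-96857408), was detected in 0 cells. The third (chr3:96836336-96836395), near the start of another RefSeq transcript, was detected in WT cell 2, at 10.9, and in no other cell. The second (chr3:96881280-96881339) is assigned to a cDNA clone rather than to a RefSeq transcript. It read 31.6, 13.1, 8.42 and 11.3 in the WT cells and 21.4, 6.58, 12.6 and 11.4 in the KO cells, and it was well above background in each WT cell and in KO cell 1. These values overlapped and were all under the floor, so that the difference is 0.00 by construction.

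Tjp1 encodes ZO-1. Its probe (chr7:72441126-72441185) read 23.2, 1059, 15.5 and 1457 in the WT cells and 3.68, 3.34, 15.5 and 1753 in the KO cells. All 4 WT cells and KO cells 3 and 4 were detected, but only WT cells 2 and 4 and KO cell 4 were above the floor, and KO cell 4 was the highest of the 8. The log2 difference was -1.03, with an SD of 2.68 in WT and 2.57 in KO. Without KO cell 4 it was -2.32, and without WT cell 4 it was -0.19.

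By cell, the number of the 16 probes detected was 7, 9, 9 and 7 in WT 1 to 4 and 5, 6, 4 and 8 in KO 1 to 4. The mean was 8 ± 1.15 (SD, n = 4) in WT and 5.75 ± 1.71 (SD, n = 4) in KO, a difference of -2.25, and KO cell 4 lay within the WT range. The share of all probes detected was lower by 3.06 percentage points in KO cells on average (22.8% in WT and 19.7% in KO), and its part in the difference was not tested. KO cell 1 had 5 of the junction probes and 24.3% of all probes detected, the highest share of all probes among the KO cells. When probes above the floor were counted in place of detected probes, the difference was -0.75. The array-wide share above the floor was 11.8%, 14.3%, 15.7% and 16.4% for WT 1 to 4. For KO 1 to 4 this share was 13.0%, 12.4%, 11.7% and 13.7%, so 3 of the 4 WT cells exceeded every KO cell. The difference of -0.75 is thus not shown to be particular to the junction probes, and the part of the array-wide share in it was not tested. All 6 genes were above the floor together in WT cell 2 and KO cell 4 only.

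**Figure D4:**
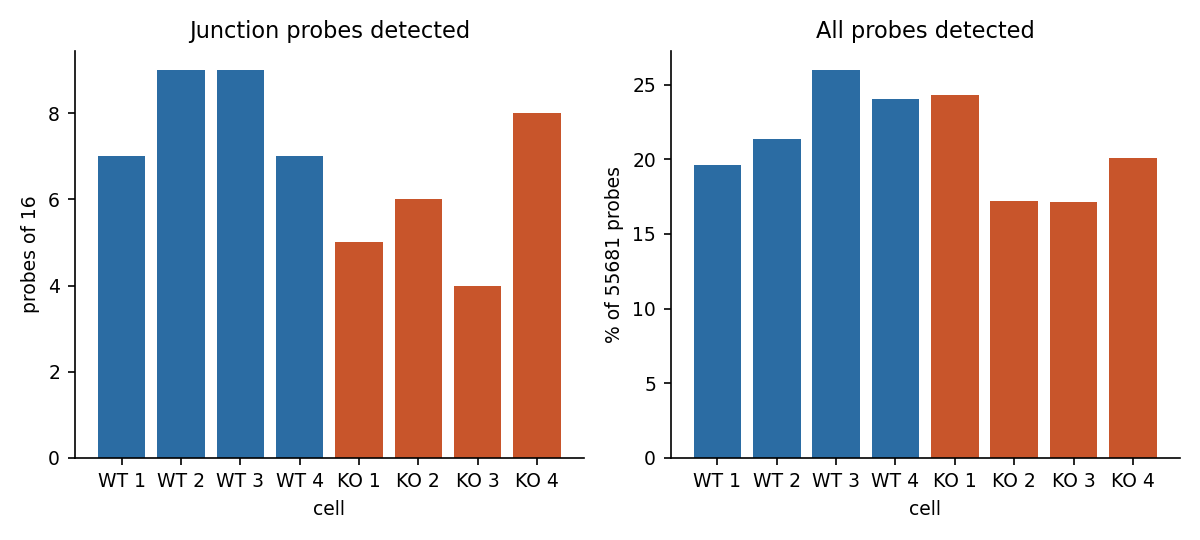
Bars show, for each of the 4 WT and 4 KO cells, the number of the 16 junction probes well above background (left) and the percent of all probes well above background (right). WT cells had 7 to 9 junction probes, and KO cells 4 to 8.

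A comparison over the array set these differences in context. A probe was called present if every cell of the WT set, of the KO set or of both had it detected. Of the 16 probes, 6 were present: the second Cdh2 probe, through the KO cells, Ctnna1, through both genotypes, and Ctnnb1, Pkp2, Tjp1 and the second Gja5 probe, through the WT cells. A probe that is present through 1 genotype alone is missing from at least 1 cell of the other, so its difference is set in part by that choice. One of the 6, Pkp2, was at least 5-fold lower in KO cells, against 6.89% of the 7464 present probes of the array. At least 5-fold higher were 0 of the 6, against 1.76% of all present probes. In 0 of the 6 did all cells of 1 genotype lie above all cells of the other, which held for 5.52% of present probes. Ctnnb1 at -1.75 was the nearest member inside the 5-fold limit, which is 2.32 on the log2 scale.

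Of the 10 genes, 7 were detected in at least 4 cells with their brightest probe. Their median KO minus WT difference was -1.03, with 5 lower, 1 higher and 1, Gja5, at the floor in every cell. With the first Cdh2 probe in place of the second, the median was -0.54, with 4 lower and 2 higher. The median of the 5418 genes kept by the same rule was 0.00, with 45.6% lower and 42.3% higher. The median of the 7 was between -2.01 and 0.00 when 1 cell was left out in turn, and was 0.00 without KO cell 3. The second Cdh2 probe had a larger SD between WT cells than 99.8% of present probes, and Pkp2 a larger SD between KO cells than 97.8%. These were the highest of the 6 present junction probes in each genotype, and both SDs include cells set to the floor. Each of these 2 probes was present through the other genotype alone, while 5300 of the 7464 present probes were detected in all 8 cells. Both ranks were thus set in part by the filter, and do not show an unusual spread. Apart from Gja5, at the floor in every cell, the lowest were 33.1% for Ctnnb1 in WT and 79.9% for Ctnna1 in KO. Over the 15 pairs of the 6 genes above the floor, the Pearson correlation across the 8 cells ranged from -0.49 (Ctnna1 and Ctnnb1) to 0.60 (Ctnnb1 and Pkp2), as a description only.

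**Figure D5:**
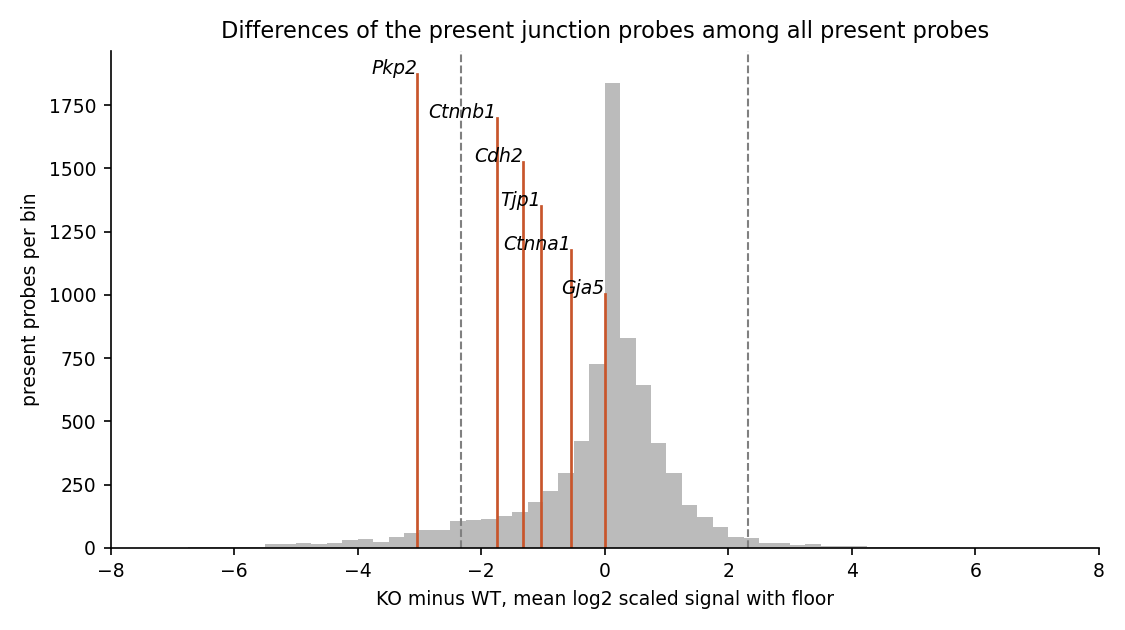
Histogram of the KO minus WT difference in mean log2 scaled signal over the 7464 present probes of the array, with values under 50 set to 50; orange lines mark the 6 present junction probes and dashed lines the 5-fold limits. Pkp2, at -3.04, is the member outside the limits, and Gja5 lies at 0.00 because it is at the floor in every cell.

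The wider set comprised 106 other genes in 6 lists, 105 of them on the array, of which 53 were above the floor in at least 1 cell. The list of the beta-catenin pathway, 18 genes of signalling rather than of junctions, gave 14 of the 53. Over all 6 lists, the brightest probe was present for 18 genes. Of these, 1 was at least 5-fold higher in KO cells and 0 were at least 5-fold lower, beside 1.76% and 6.89% of all present probes. Of the 6 lists, that of intercalated disc partners had 22 genes, of which 18 were above the floor in any cell and 8 were present. The 11 of them detected in at least 4 cells had a median difference of 0.32, with 4 lower and 6 higher. The gene past the limit was Flnc, which encodes filamin C, an actin cross-linker of Z-discs and intercalated discs. It read 20.3, 305, 846 and 2002 in WT 1 to 4 and 6445, 28204, 3060 and 4886 in KO 1 to 4. All KO cells lay above all WT cells, with a log2 difference of 4.17 (WT SD 2.29, KO SD 1.38). The difference was 3.17 to 4.94 when 1 cell was left out. Full separation of the genotypes, in either direction, held for 5.52% of all present probes. Flnc was named because it was past the limit, so its values were singled out by that rule. Des, in the same list, encodes desmin, the intermediate filament protein that desmosomes hold in muscle, and was found in each WT cell and in 3 KO cells. It read 1055, 1081, 127 and 1270 in the WT cells and 791, 3.63, 1130 and 491 in the KO cells, a difference of -0.77 that was 0.22 without KO cell 2.

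Of 16 other adherens junction genes, 6 were above the floor in any cell. Ctnnd1, which encodes p120-catenin and stabilises cadherins at the membrane, was detected in all 8 cells. It read 5240, 4263, 2857 and 3977 in the WT cells and 1445, 6580, 2419 and 1052 in the KO cells, a difference of -0.85 with an SD of 0.36 in WT and 1.16 in KO, which was -1.37 without KO cell 2 and -0.49 without KO cell 4. Vcl, which encodes vinculin and reinforces the link to actin, was detected in 3 cells of each genotype, with a difference of 0.83 that was -0.08 without WT cell 1. The epithelial cadherin gene Cdh1 was detected in 0 of 8 cells.

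Of 13 other desmosome genes, 4 were above the floor in any cell. Dsc2, which encodes desmocollin 2, the partner of desmoglein 2, read 352 and 331 in WT cells 3 and 4 and 1027 in KO cell 3, and was not detected in the other 5 cells.

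Of 18 other connexin genes, 3 were above the floor in any cell. Gjc1, which encodes Cx45, the connexin known from the earliest heart, read 108 and 136 in WT cells 2 and 4 and 26.8 in KO cell 2, and was not detected in the other 5 cells. Of 18 tight junction and scaffold genes on the array, 8 were above the floor in any cell. Cxadr, a cell adhesion receptor of the intercalated disc, was detected in WT cells 3 and 4, at 610 and 625, and in 3 KO cells, of which KO cells 3 and 4 read 432 and 211, a difference of -0.52 that was 0.14 with quantile normalization. Among 18 genes of the beta-catenin pathway, 3 were present and 0 were at least 5-fold apart.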

How the data were processed

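Intensity values were taken as deposited: per the file headers, Agilent Feature Extraction 12.0.2.2 gave for each spot a processed signal on a linear scale, corrected for background, with the mean and background signals beside it, on a 1-colour mouse array of 60-base probes placed on mm9. Before that the authors had made cDNA from each single cell, amplified it, transcribed it from a T3 promoter and labelled it with Cy3. Identity of the cells had been settled by marker PCR.

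Here, controls and outlier spots (146 to 220 on an array) were removed, 0 spots were saturated, and repeat spots were averaged on the log2 scale. Each array was shifted (by -0.76 to 0.68 on the log2 scale) so that its 50th percentile over the 5300 probes well above background on all 8 arrays was equal, and values under 50 were set to 50. A probe was detected where more than 50% of its kept spots were well above background. For each gene the probe with the highest mean signal was used. No p-value was calculated. The number of arrays limits the precision. Genes were named by rule. They were all 10 members, any gene of the other lists present and at least 5-fold apart, and 9 set junction genes. The 3 probes most like Cdh2 were added, and Gja1, above the floor in 0 cells, was given none. Listed genes withheld from this account are not reported here. Members and lists were chosen with earlier results of these data known. Alternatives changed the scaling, background correction (normexp in limma 3.58.1, offset 50), floor, filter, fold limit, probe choice and detection rule, and left out each cell. The calculation was tested on simulated data. Those data had less spread between cells than these and no cells that lost the signal of a gene. The test thus checks the arithmetic, and not how often a 5-fold difference arises between such cells. Python 3.11.15 and R 4.3.3 were used. No genome of build mm9 was used here, so exons were not assigned.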

Additional observations from a re-analysis of the deposited data

Results flagged for a closer look

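Within a genotype, 27 sets of 4 cells with unequal values were examined (members, the other named genes and the count of detected probes), and in 7 of them 1 cell stood apart, its gap to the next cell, divided by the range of the set, being above Dixon's limit for 4 values; chance gives about 1 in 20 for values with no ties, which does not hold where cells were set to the floor. In all but the sets of Pkp2 and Des the floor of 50 was one end of the range. For Ctnnb1 this was KO cell 1, not detected (0.883). For Dsp it was WT cell 1, which lacked signal in all 10 spots (0.97), and for Tjp1 KO cell 4, the only KO cell above the floor (1, by construction, since the other KO cells were set to 50). Pkp2 in WT cell 4 was low at 891, with the other WT cells at 6368 to 7296 (0.935), and no cell of that set was at the floor. KO cell 3 stood apart for Dsc2, as the only KO cell detected (1, by construction in the same way), and for Vcl, as the only KO cell without signal (0.904). WT cell 3 stood apart for Des, at 127 (0.92).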

How the results depend on the processing

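No paired analysis was possible because the cell numbers name cells and array positions only and no test was made. The count of present junction probes at least 5-fold lower in KO cells was 1 of 6 as reported and 3 of 6 without the floor. It was 4 of 6 with a 2-fold and 0 of 6 with a 10-fold limit. Requiring detection in all 8 cells left 1 probe, and the count was 0. This count ranged from 0 to 2 when 1 cell was left out: 0 without KO cell 1 or KO cell 3 and 2 without WT cell 4. The shares of all present probes past these other rules are not given here, so these counts cannot be read as particular to the junction genes. The count at least 5-fold higher was 0 under every alternative run. The median difference of the members, -1.03, was between -1.24 and -0.27 under the other settings run, the value nearest 0 being without a filter, and ranged from -2.01 (without KO cell 4) to 0.00 (without KO cell 3) with 1 cell left out. The difference in detected probes per cell, -2.25, was -0.75 when signals above 50 were counted and ranged from -3 to -1.67 with 1 cell left out. Of 20 named genes, 7 were at the floor in every cell. Of the other 13, 7 (Cdh2, Ctnna1, Dsp, Dsc2, Vcl, Des and Cxadr) changed sign under at least 1 alternative, and 6 (Ctnnb1, Pkp2, Tjp1, Gjc1, Ctnnd1 and Flnc) did not under those run. Every KO cell was under the floor for Gjc1, so with the floor as scaled its difference could not be above 0. The median difference over the probes detected in all cells was 0.15 as scaled and between 0.00 and 0.34 under other settings. The alternatives with Cdh2 read by its chromosome 18 probe, without genes at the floor, and with genes counted in place of probes were added after seeing the data. The number of cells limits every comparison, and values set to the floor have no order among themselves.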
